A study of Mus musculus with 8 samples.

Results

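The BCL2 family decides whether the outer membrane of mitochondria is opened during apoptosis. The 10 family genes described here were taken by symbol from a table of 17847 genes: the survival genes Bcl2, Bcl2l1 and Mcl1, the effectors Bax and Bak1, and the BH3-only genes Bcl2l11, Bid, Bad, Bmf and Hrk. All 10 were present, and all 10 stood above the floor of the table in enough libraries to be tested. Transcripts were measured by RNA-seq in muscle stem cells sorted from skeletal muscle of C57Bl/6 mice, in 4 wild-type and 4 Cox10-/- libraries. In the Cox10-/- animals a floxed Cox10 allele was deleted by a tamoxifen-dependent Cre under Pax7, so deletion is limited to cells that express Pax7. Each sample carries the same treatment label, tamoxifen at 200 mg/kg given by 1 intraperitoneal injection, with collection 2 days after it. Whether the wild-type animals carry the Cre or the floxed allele, and whether each library is 1 animal, is not stated in the labels. The p-values therefore measure the spread between these libraries, which may be technical.

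Survival proteins of the family (BCL2, BCL-XL from Bcl2l1, MCL1) hold the other members in check by binding their BH3 helix. BAX and BAK, once freed or activated, form pores in the outer mitochondrial membrane through which cytochrome c reaches the cytosol and starts the caspase cascade. The BH3-only proteins sense stress and either occupy the survival proteins or activate the effectors directly. Cox10 encodes an enzyme of haem A synthesis, which cytochrome c oxidase needs. The comparison asks how transcripts of these genes differ between the genotypes 2 days after tamoxifen.

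Depth was 1693349 to 4650051 reads counted in genes per library, lowest in Cox10-/- replicate 4 (1693349) and wild-type replicate 2 (2148645). Cox10 itself had a log2 fold change of -0.62 ± 0.34 (SE, n = 4 per genotype), which did not pass (limma adjusted p = 0.246), with wild-type libraries at 3.42 to 4.12 log2 CPM and Cox10-/- libraries at 2.05 to 3.69. The Cox10 difference was -0.24 without Cox10-/- replicate 4, -0.10 within replicates 1 and 2 and -1.14 within replicates 3 and 4. Counts cover the whole gene and not the deleted stretch alone. By the chi-square of their reads, replicate 1 was most like replicate 2, and replicate 3 most like replicate 4, in each genotype (2.31 to 2.88 per degree of freedom, against 4.40 to 6.80 for other pairs), and the labels give no reason. Differences are therefore also given within each of these sets. Of 12 muscle stem cell markers 7 fell and none rose, with Pax7 at 8.62 ± 0.15 log2 CPM (SD, n = 4) in wild-type and 7.33 ± 0.18 in Cox10-/- libraries, and their summed level went from 2703 to 3413 CPM in wild-type to 1885 to 2078 CPM in Cox10-/-. Among all genes tested 7.58% rose and 8.51% fell (limma adjusted p under 0.05). Markers of other cells moved with genotype too. Endothelial markers summed to 362 to 396 CPM in wild-type and 421 to 503 in Cox10-/- (4 of 12 rose, none fell), mural markers to 714 to 955 and 1077 to 1309 (2 of 8 rose, 2 fell), and muscle fibre markers to 58 to 151 and 93 to 258 (2 of 7 rose). Fibro-adipogenic progenitor markers, led by Col1a1, were abundant in both, at 4014 to 5380 and 4173 to 8549 CPM (2 of 10 rose, 1 fell). The 4 haematopoietic markers analysed lay at 26 to 33 and 25 to 46 CPM with no call. Of the antigens that the sort excludes, Pecam1 (CD31) went from a mean of 3.13 to 4.52 log2 CPM and Ly6a (Sca1) from 1.25 to 3.08, and both rose (limma adjusted p = 0.024 and 0.0202). The Pecam1 groups overlapped, and its call was lost in 6 of 8 fits without 1 library (up to 0.0763 without Cox10-/- replicate 3). The Ly6a call was lost without Cox10-/- replicate 3 (0.0692), without the 2 shallowest libraries (0.0619) and by limma-voom (0.124). It was also lost within replicates 1 and 2 alone (0.0553) and when the means of replicates 1 and 2 and of 3 and 4 were taken as samples (0.0581). The smallest mean of any gene in the table was 0.5 log2 CPM, so a marker at 0 in every library could not appear in it. Of 12 haematopoietic markers listed 4 were in the table, and of 8 muscle fibre markers 7 were. The part of other cell types in the values below was not tested. In sorted bulk samples, fewer cells of a type and less RNA per cell cannot be told apart.

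Of the 10 BCL2 family genes, 4 rose in Cox10-/- cells and none fell, and the 4 came from both sides of the family. They were the survival genes Bcl2 and Bcl2l1 and the BH3-only genes Bcl2l11 and Hrk. Against this 40% of the members, 16.1% of all genes tested were called, 7.58% as higher and 8.51% as lower (limma adjusted p under 0.05). Rises made up 47.1% of these calls, and 56.3% and 53.9% of those after median centring and TMM scaling. The same 4 genes were those in which all Cox10-/- libraries lay above all wild-type libraries, where 9.30% of all genes did so. The median log2 fold change of the 10 was 0.28, against -0.06 over all 17801 genes tested. When the means of replicates 1 and 2 and of replicates 3 and 4 were taken as 2 samples per genotype, 2 of the 4 calls were left, those of Bcl2l1 and Hrk. The plot of log2 CPM by library shows the tight Cox10-/- values of Hrk, the wide wild-type spread of Bmf and the single low Cox10-/- library of Bid.

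**Figure D1:**
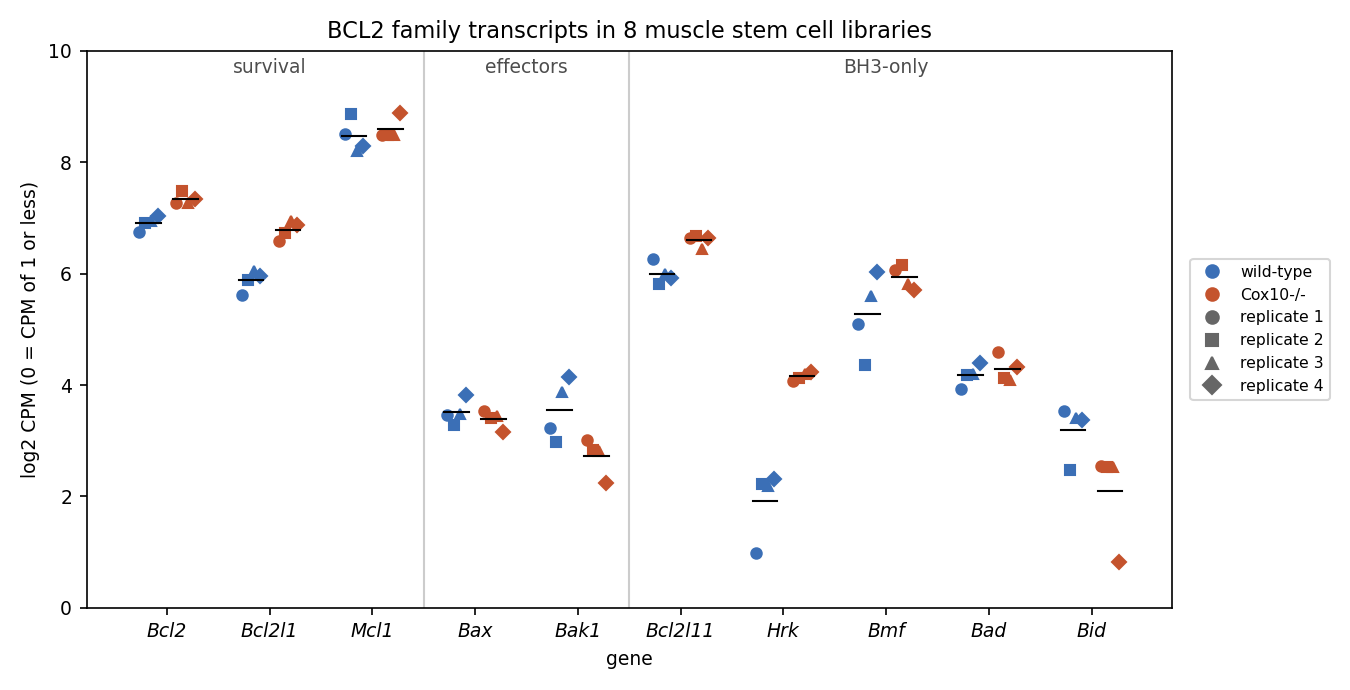
Log2 CPM (vertical axis; 0 stands for a CPM of 1 or less) of the 10 genes in each of 4 wild-type and 4 Cox10-/- libraries, with a marker shape for each replicate number and a bar at each mean of 4. The Cox10-/- values of Bcl2, Bcl2l1, Bcl2l11 and Hrk lie above all wild-type values, and the groups of the other 6 genes overlap.

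The sequences before the start sites of Bcl2l11 and Hrk are shown because both genes rose and are the called members whose promoter window held one of the motifs searched. RefSeq promoters (GRCm38.p6; the deposited table was made on mm9, and no coordinate was carried between the builds) were matched for all 10 genes, in 16 windows of the 250 bases before a start site. The motifs were GTAAACA, the core bound by FoxO factors, CACGTG, an E-box, TGATGNAA, the core bound by C/EBP and ATF dimers, and TGACGTCA, a cyclic AMP response element, on both strands. No 2 of their matches overlapped. The sequences run 5′ to 3′ from 250 to 51 bases before the start, with the match in capitals, on the plus strand of chr2:128125788-128125987 for Bcl2l11 and of chr5:118169514-118169713 for Hrk.
Bcl2l11: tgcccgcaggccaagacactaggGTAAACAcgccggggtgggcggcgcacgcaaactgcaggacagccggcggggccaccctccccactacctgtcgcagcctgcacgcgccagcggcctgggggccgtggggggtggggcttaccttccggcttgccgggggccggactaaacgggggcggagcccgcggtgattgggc
Hrk: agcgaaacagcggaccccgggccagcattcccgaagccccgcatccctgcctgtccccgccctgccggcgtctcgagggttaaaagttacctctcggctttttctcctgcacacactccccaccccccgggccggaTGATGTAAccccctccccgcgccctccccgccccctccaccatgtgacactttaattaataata
In the Bcl2l11 window GTAAACA begins 227 bases before the start, and 3.17% of all 32851 promoter windows hold that motif. In the Hrk window TGATGTAA begins 114 bases before the start, and 3.45% of all windows hold TGATGNAA. The only other match among the 16 windows was CACGTG in that of Bax, 9 bases before its start, a motif in 6.02% of all windows. The further window of Bcl2l11 and those of Bcl2 (1) and Bcl2l1 (3), the other called genes, held none of the 4 motifs, which says only that these letters are not in these windows. The promoters of Bcl2 and Bcl2l11 were rich in G and C, at 74.8% and 72.0% for the windows that end at the first start site, above 95.8% and 93.1% of all windows. The other called genes were lower, with 47.6% to 53.2% in the 3 windows of Bcl2l1 and 63.2% in that of Hrk. Windows of the 6 members not called held 54.0% to 64.8%, and the median of all windows was 52.4%. A match is a description of the sequence and not a site shown to be bound.

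Hrk, which encodes the BH3-only protein harakiri, a binder of BCL-XL and BCL2, rose the most of the 10 genes. Wild-type replicates 1 to 4 stood at 0.98, 2.22, 2.18 and 2.31 log2 CPM, whereas Cox10-/- replicates 1 to 4 stood at 4.08, 4.13, 4.20 and 4.24, and values are given in this order for every gene. Every Cox10-/- library stood at least 1.77 above the highest wild-type library, and the SD was 0.07 among Cox10-/- and 0.63 among wild-type libraries. The rise was 2.24 ± 0.31 on the log2 scale (SE, n = 4 per genotype; 95% interval 1.58 to 2.91; limma adjusted p = 4.89e-04), or 4.72-fold (2.98 to 7.49). The two-sided exact permutation p was 0.0286, the smallest that 70 assignments allow, for this gene and for the other 3 that rose. Every gene whose groups do not overlap gets this p, so it only restates the lack of overlap, which 21.1% of all genes tested had in either direction. The Hrk difference was 2.51 within replicates 1 and 2 and 1.98 within replicates 3 and 4. The wild-type level rests on few reads, 7, 10, 21 and 20 in replicates 1 to 4, against 73, 76, 57 and 32 in Cox10-/-. The counting interval of the 7 reads is 2.81 to 14.4 (exact Poisson, 95%, counting error only). That of the 32 reads in Cox10-/- replicate 4 is 21.9 to 45.2, wider than the spread of the 4 Cox10-/- values. Hrk changed its place in the family's order of levels, as described further on.

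Bcl2l11 encodes BIM, which binds all of the survival proteins and can activate BAX and BAK. Its level was 6.26, 5.82, 6.00 and 5.92 log2 CPM in wild-type and 6.64, 6.68, 6.45 and 6.63 in Cox10-/- libraries. The lowest Cox10-/- library stood 0.19 above the highest wild-type library. It rose by 0.60 ± 0.11 (SE; 95% interval 0.35 to 0.85; limma adjusted p = 0.00404), a 1.52-fold difference, with 0.62 within replicates 1 and 2 and 0.58 within replicates 3 and 4. With 2 means per genotype the adjusted p was 0.0628.

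Of the 3 survival genes 2 rose. Bcl2l1, whose main protein BCL-XL binds BIM, BAD, HRK and the effectors, was at 5.62, 5.89, 6.05 and 5.95 log2 CPM in wild-type and 6.59, 6.73, 6.95 and 6.88 in Cox10-/- libraries. The groups were 0.54 apart at their nearest libraries. The rise was 0.91 ± 0.12 (SE; 95% interval 0.65 to 1.17; limma adjusted p = 3.89e-04), or 1.88-fold, and it was 0.91 within replicates 1 and 2 and 0.92 within replicates 3 and 4. Counts per gene do not separate BCL-XL from the shorter form that the same gene can give by splicing. Bcl2, named for the founding survival protein, was at 6.75, 6.91, 6.95 and 7.03 in wild-type and 7.27, 7.48, 7.26 and 7.34 in Cox10-/- libraries. Its rise of 0.43 ± 0.09 (SE; 95% interval 0.23 to 0.63; limma adjusted p = 0.00892), or 1.34-fold, was the smallest of the 4, with groups 0.23 apart. Bcl2 was 0.55 higher within replicates 1 and 2 and 0.31 higher within replicates 3 and 4, where its adjusted p was 0.0657, and with 2 means per genotype it was 0.147. Mcl1, whose protein is short-lived and binds BIM and BAK, did not pass. Its values of 8.51, 8.87, 8.20 and 8.29 in wild-type and 8.49, 8.49, 8.49 and 8.89 in Cox10-/- overlapped, with a difference of 0.12 ± 0.14 (95% interval -0.19 to 0.44; limma adjusted p = 0.605). The highest Mcl1 value of each genotype was in its shallowest library. The difference was -0.20 within replicates 1 and 2 and 0.45 within replicates 3 and 4, so the sign turned between the sets.

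Neither effector passed the test. Bax, whose protein moves from the cytosol to mitochondria, was at 3.46, 3.29, 3.48 and 3.82 log2 CPM in wild-type and 3.54, 3.40, 3.45 and 3.15 in Cox10-/- libraries. The groups overlapped, and the difference of -0.13 ± 0.21 had a 95% interval of -0.59 to 0.33 (limma adjusted p = 0.727), that is 66.5% to 126% of the wild-type level. Bak1, whose protein BAK sits in the outer membrane, was at 3.22, 2.98, 3.87 and 4.14 in wild-type and 3.02, 2.83, 2.82 and 2.24 in Cox10-/-. The highest Cox10-/- library exceeded the lowest wild-type library by 0.04. The difference of -0.83 ± 0.30 (95% interval -1.49 to -0.17) had a limma adjusted p of 0.0843 and an exact permutation p of 0.0571. It differed between the sets, at -0.18 within replicates 1 and 2 and -1.48 within replicates 3 and 4. Without wild-type replicate 2 Bak1 passed as lower (-1.02, limma adjusted p = 0.0396), and within replicates 3 and 4 alone its adjusted p was 0.0252.

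Among the other BH3-only genes, Bmf, Bad and Bid did not pass. Bmf, whose protein is held at the cytoskeleton until cells detach or lose growth signals, was at 5.10, 4.36, 5.60 and 6.03 log2 CPM in wild-type and 6.07, 6.16, 5.82 and 5.70 in Cox10-/-. Its wild-type SD of 0.72 exceeded that of 99.0% of the 2526 genes of like level, whereas its Cox10-/- SD of 0.21 exceeded that of 59.5%. The difference of 0.67 ± 0.28 (95% interval 0.06 to 1.27; limma adjusted p = 0.127) was 1.39 within replicates 1 and 2 and -0.06 within replicates 3 and 4. Bmf passed as higher without wild-type replicate 4 (0.92, limma adjusted p = 0.0299) and within replicates 1 and 2 alone (limma adjusted p = 0.00296).

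Bid encodes the protein that caspase 8 cleaves, which links death receptors to mitochondria. It was at 3.53, 2.48, 3.40 and 3.38 log2 CPM in wild-type and 2.54, 2.52, 2.53 and 0.82 in Cox10-/- libraries. In each genotype the shallowest library was the lowest, with 12 reads in wild-type replicate 2 and 3 reads in Cox10-/- replicate 4 (exact Poisson 95% interval 0.619 to 8.77), and the groups overlapped by 0.06. The difference of -1.10 ± 0.41 (95% interval -1.99 to -0.20; limma adjusted p = 0.0914) was -0.48 within replicates 1 and 2 and -1.72 within replicates 3 and 4. The difference ranged from -1.33 to -0.67 over the 8 fits without 1 library, smallest without Cox10-/- replicate 4. Without both shallow libraries Bid passed as lower (-0.91, limma adjusted p = 0.0214). Bad, whose protein is kept from mitochondria by phosphorylation, was at 3.93, 4.18, 4.19 and 4.40 in wild-type and 4.59, 4.13, 4.09 and 4.33 in Cox10-/-. The groups overlapped, with a difference of 0.11 ± 0.18 (95% interval -0.28 to 0.50; limma adjusted p = 0.724).

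**Figure D2:**
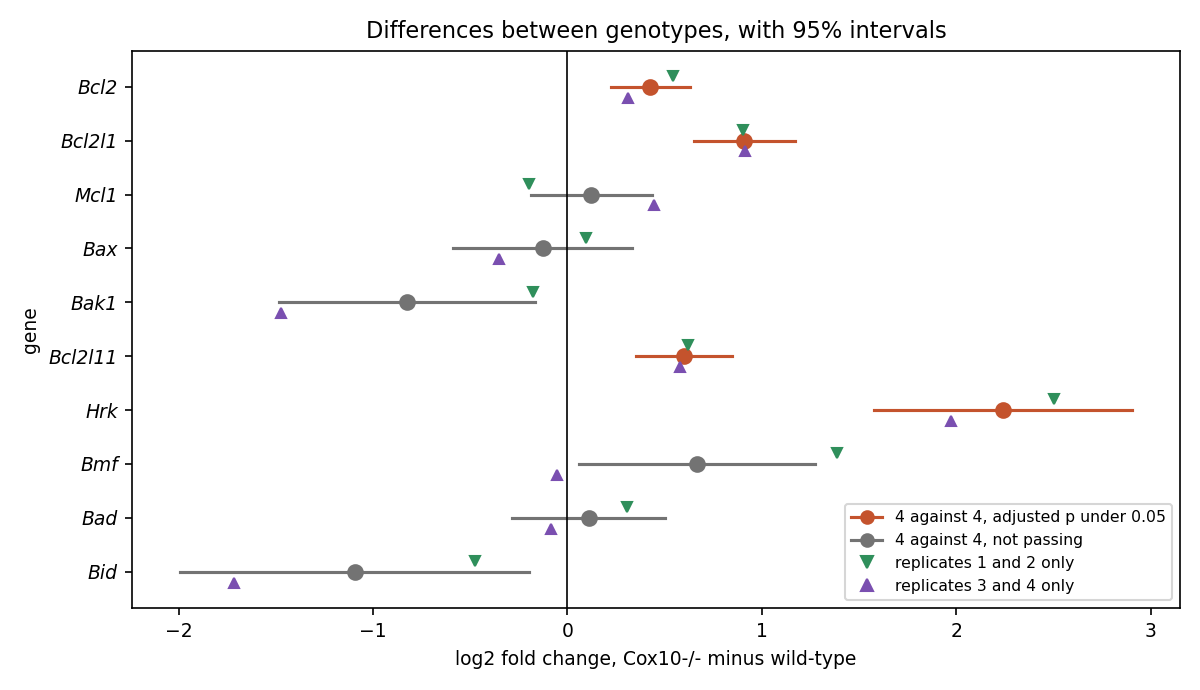
Log2 fold change of each gene, Cox10-/- minus wild-type (circle, with its 95% interval as a line), and the difference within replicates 1 and 2 (downward triangle) and within replicates 3 and 4 (upward triangle). Bcl2, Bcl2l1, Bcl2l11 and Hrk keep their sign in both sets, as do Bak1 and Bid below 0, while Mcl1, Bax, Bmf and Bad change sign.

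Levels were compared between the genes per kilobase of exon (GENCODE M21, GRCm38; the sources used here do not name the authors' gene models). In wild-type cells Mcl1 led at 6.69 log2 CPM per kilobase (range 6.43 to 7.10 over 4 libraries), and every library of it lay above every library of the other 9 genes. Bcl2l1 (3.92), Bcl2 (3.72) and Bax (3.72) followed with ranges that overlapped one another. Bcl2l11 (3.21), Bmf (3.00) and Bad (2.92) overlapped too, as did Bad and Bak1 (2.30), and Bak1 and Bid (2.07). The range of Bmf (2.09 to 3.76) also overlapped those of Bcl2l1, Bcl2 and Bax above it and of Bak1 and Bid below it. Hrk was last at -0.51 (range -1.45 to -0.12), below every library of the others. In Cox10-/- cells the order was Mcl1 (6.82), Bcl2l1 (4.83), Bcl2 (4.14), Bcl2l11 (3.81), Bmf (3.67), Bax (3.59), Bad (3.03), Hrk (1.73), Bak1 (1.47) and Bid (0.97). There Mcl1, Bcl2l1 and Bcl2 each lay above the next gene in all 4 libraries. Bcl2l11, Bmf and Bax overlapped as neighbours, Bad lay below them and above Hrk in all 4, Hrk (1.65 to 1.81) overlapped Bak1 (0.98 to 1.76), and Bak1 overlapped Bid. With the length of 1 principal transcript per gene, Bad ranked above Bmf in both genotypes and above Bax in Cox10-/-, while Hrk stayed at rank 10 and rank 8. Exons of Bax, Bad, Bak1 and Bcl2 overlap those of another annotated gene over 22.1%, 21.6%, 10.7% and 6.09% of their length, and reads there may be shared or lost, since the sources used here do not give the strand setting of the counting.

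Differences between 2 genes inside a library do not depend on how the library was scaled. They were taken for 5 pairs of a survival gene and a death gene and are given without a test. No pair held Hrk, which rose by 2.24, more than Bcl2l1 (0.91) or Bcl2 (0.43). Bax and Bad did not pass, so the pairs with them largely repeat the rises of Bcl2 and Bcl2l1. The 5 pairs therefore do not give the balance of the family. Bcl2l1 minus Bax was 2.16, 2.60, 2.57 and 2.13 on the log2 CPM scale in wild-type and 3.05, 3.33, 3.50 and 3.73 in Cox10-/- libraries, a mean of 2.37 ± 0.26 against 3.40 ± 0.29 (SD, n = 4). All Cox10-/- libraries were above all wild-type libraries, and the excess of Bcl2l1 over Bax was 2.05-fold larger. Bcl2 minus Bax was 3.29, 3.62, 3.47 and 3.21 against 3.73, 4.08, 3.81 and 4.19, which also did not overlap and differed by 0.56. Bcl2l1 minus Bad, at 1.70 ± 0.13 against 2.50 ± 0.36, did not overlap either. The pairs with Mcl1 did overlap. Mcl1 minus Bcl2l11 averaged 2.47 ± 0.40 in wild-type and 1.99 ± 0.21 in Cox10-/-, and Mcl1 minus Bak1 4.92 ± 0.82 and 5.86 ± 0.53, where the mean difference of 0.95 was -0.03 within replicates 1 and 2 and 1.92 within replicates 3 and 4.

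**Figure D3:**
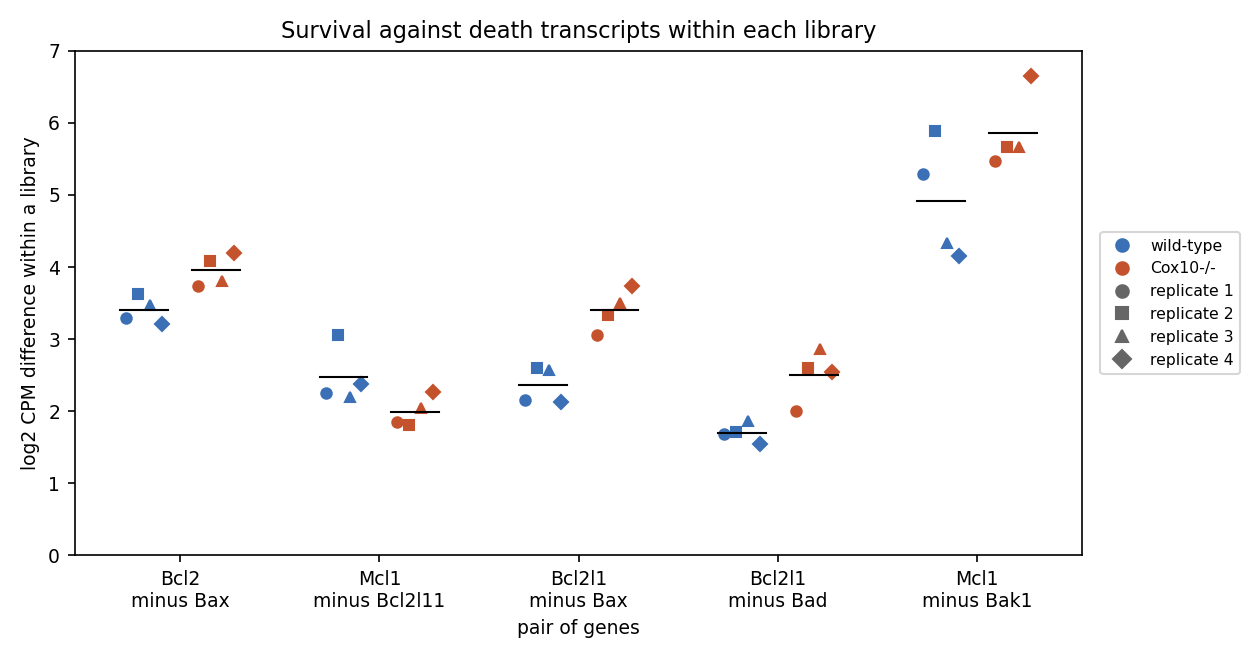
Log2 CPM difference between 2 genes within each library (vertical axis) for 5 pairs of a survival gene and a death gene, with bars at the mean of 4 libraries. The 3 pairs with Bax or Bad do not overlap between genotypes and are higher in Cox10-/-, and both pairs with Mcl1 overlap. No pair holds Hrk, the member that rose the most.

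The genes nearest in profile were taken by the root mean square difference of log2 CPM over the 8 libraries after centring each gene on its mean. Candidates were 10676 genes with a mean of at least 3, without the 10 members and predicted gene models (symbols of Gm and a number, or with Rik). For Hrk the nearest were Serpina3n (0.217), a secreted serpin, and Wnk4 (0.230), a kinase. For Bcl2l1 they were Rbl2 (0.083), which encodes the pocket protein p130 of quiescent cells, and Fam102b (0.097). For Bcl2l11 they were the transcription factor gene Sox5 (0.062) and Hypk (0.073), and for Bcl2 Cep57 (0.068) and Camsap2 (0.079), both of microtubule-associated proteins. The distances are smaller for genes that vary less, so they rank genes only around 1 member.

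Relatives outside the 10 moved in both directions. Of 9 measured, 2 rose and 3 fell, with a median log2 fold change of -0.11 against -0.06 over all genes. Among all genes tested 7.58% rose and 8.51% fell. Bok, which encodes an effector related to BAX and BAK, fell by 1.59 ± 0.24 (SE; limma adjusted p = 0.00104), from 4.25 ± 0.30 to 2.66 ± 0.32 log2 CPM (SD, n = 4). Pmaip1, which encodes the BH3-only protein NOXA, a binder of MCL1, was at 5.69, 5.97, 4.73 and 4.58 in wild-type and 4.33, 4.62, 3.57 and 3.63 in Cox10-/- libraries. It fell by 1.21 ± 0.33 (limma adjusted p = 0.0268), with -1.36 within replicates 1 and 2 and -1.06 within replicates 3 and 4, although the pooled groups overlapped. Leaving out single libraries ended the Pmaip1 call in 4 of 8 fits, with the highest limma adjusted p (0.0862) without wild-type replicate 1. Bbc3, which encodes the BH3-only protein PUMA, had all Cox10-/- libraries (4.22 to 4.46) above all wild-type libraries (3.36 to 4.06), but its difference of 0.57 ± 0.20 did not pass (limma adjusted p = 0.08). Bbc3 passed after median centring (0.63, limma adjusted p = 0.0278), after TMM scaling (0.61, limma adjusted p = 0.0421) and within replicates 1 and 2 alone (0.91, limma adjusted p = 0.0388), against 0.22 within replicates 3 and 4. Bnip3 and Bnip3l, atypical relatives known as mitophagy receptors, rose by 1.59 ± 0.19 and 0.39 ± 0.10, and Bcl2l13, another mitochondrial relative, fell by 0.49 ± 0.10 (limma adjusted p = 1.83e-04, 0.0172 and 0.00752).

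Among genes downstream of the mitochondrial step, Cycs, which encodes cytochrome c, did not pass. It was at 5.03, 5.27, 4.62 and 4.24 in wild-type and 5.08, 4.70, 2.89 and 2.94 log2 CPM in Cox10-/- libraries, so the low values lay in Cox10-/- replicates 3 and 4 (-0.89 ± 0.46; limma adjusted p = 0.208). The Cycs difference was -0.26 within replicates 1 and 2 and -1.52 within replicates 3 and 4, where it passed (limma adjusted p = 0.0113), as it did with a term for the 2 sets (0.0214) but not with 2 means per genotype (0.368). Of 5 inhibitor of apoptosis genes Birc5 rose, by 1.23 ± 0.36 (limma adjusted p = 0.0381), and its product survivin also serves in mitosis. The Birc5 call was lost in 6 of 8 fits without 1 library, at up to 0.116 without Cox10-/- replicate 3. Of 11 death receptor genes 2 rose and 1 fell. Over all genes tested 7.58% rose and 8.51% fell, and the small counts of the inhibitor and receptor lists were not tested against that. The receptor genes Tnfrsf21 and Tnfrsf1a rose by 0.76 ± 0.13 and 0.34 ± 0.10, and the adaptor gene Traf2 fell by 0.67 ± 0.20 (limma adjusted p = 0.00184, 0.0387 and 0.0384). The Birc5 and Traf2 groups overlapped, and the calls of Tnfrsf1a and Traf2 were lost in 7 and 5 of 8 fits without 1 library, at up to 0.111 without Cox10-/- replicate 3 and 0.102 without wild-type replicate 1. Tnfrsf1a also missed the threshold after median centring (limma adjusted p = 0.0514).

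Of 19 transcription factor genes known to act on the family none rose and 2 fell, where 8.51% of all genes fell, so the count is near the background. Creb1, whose product binds cyclic AMP response elements, fell by 0.89 ± 0.15 (limma adjusted p = 0.00226), and Foxo4 fell by 0.36 ± 0.10 (limma adjusted p = 0.0242), a call lost in 4 of 8 fits without 1 library (up to 0.0821 without Cox10-/- replicate 3) and after median centring (0.0566). The transcripts of Foxo1 (0.11 ± 0.11; 95% interval -0.12 to 0.34), Foxo3 (0.24 ± 0.11; -0.004 to 0.484) and Trp53 (-0.16 ± 0.16; -0.50 to 0.18) did not pass. Foxo3 passed in 0 of 8 fits without 1 library and in 1 of 13 other alternative fits (limma adjusted p = 0.0444). Pim3, which encodes a kinase of a family that phosphorylates BAD, rose by 0.63 ± 0.11 (limma adjusted p = 0.00226). Changes of protein, of its phosphorylation and of cell death were not measured.

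**Figure D4:**
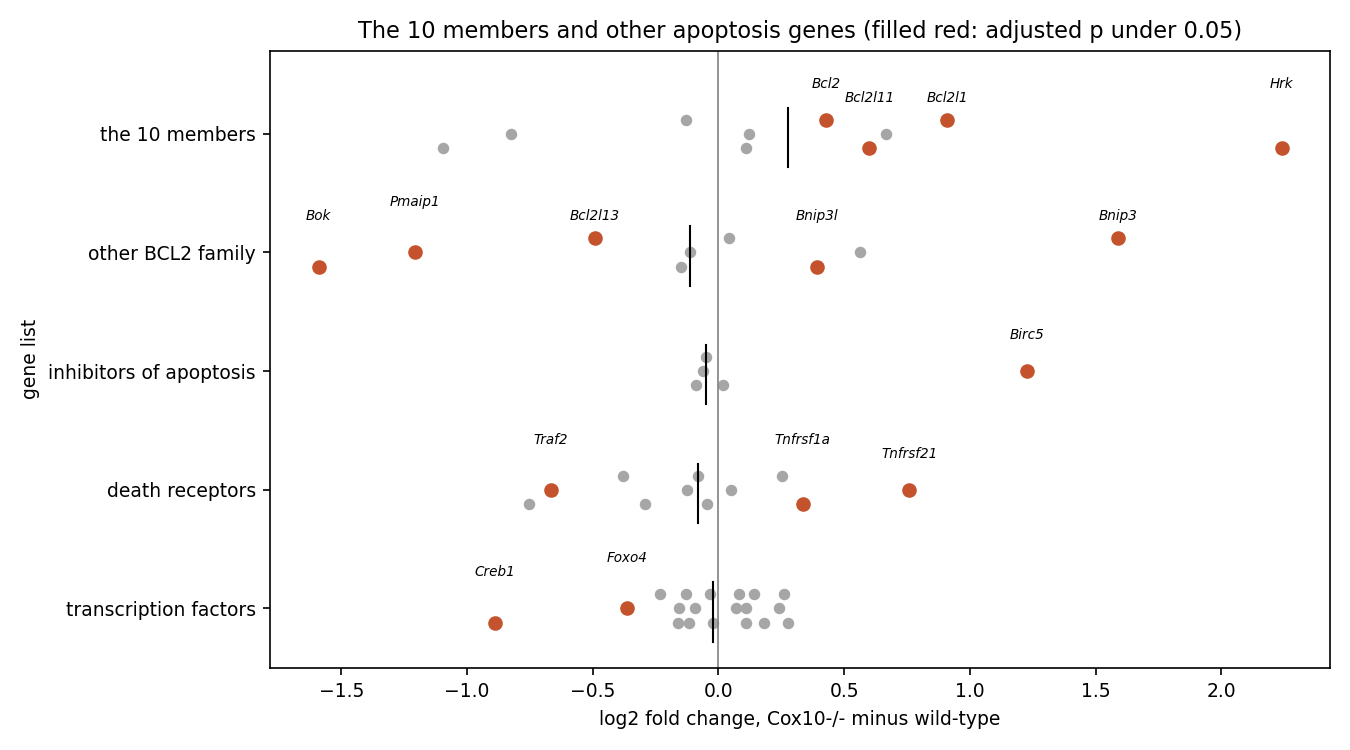
Log2 fold change, Cox10-/- minus wild-type (horizontal axis), of each measured gene of the 10 and of 4 further lists (other family members, inhibitors of apoptosis, death receptors and transcription factors), with genes that passed in red and named and a bar at each list's median. Calls stand on both sides of 0 among the other family members and the death receptors, from Bok at -1.59 to Bnip3 at 1.59.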

How the data were processed

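Per the labels' protocols, libraries came from a stranded kit for small amounts of RNA, applied to cells sorted as CD34+ and negative for CD31, CD45, Sca1 and DAPI. Trim Galore, HISAT2, featureCounts, DESeq2 and mm9 stand in the submitters' processing notes. Versions, gene models and the strand setting are not given in the sources used. Per gene and library, the authors deposited log2 CPM, rounded to 2 decimals, with every CPM of 1 or less at 0. A further 1054 rows name no gene and were left out, as was the authors' mean column.

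Low values were whole multiples of 1 read (100% within 0.1 of a whole read, for values of up to 20 reads). Reads recovered from these steps gave the depth, read counts and 1 alternative test. The genotypes were compared in limma 3.58.1 (R 4.3.3) with a variance trend on the deposited values, with no added pseudocount, over 17801 genes above 0 in at least 4 of 8 libraries (46 left out), two-sided, with Benjamini-Hochberg adjustment over these and a threshold of 0.05. Intervals come from the moderated fit. The fit was tested on simulated data. Exact permutation tests were run over 70 assignments. Named genes follow a rule: the 10 members, Cox10, Pax7, up to 4 called genes of each list with the smallest p, Bbc3, Pmaip1, Trp53, Foxo1, Foxo3 and Cycs, the leading marker of each cell type, and 2 nearest profiles per called member. Not all leading markers are described, and Pecam1 and Ly6a were added after their values were seen. Members, lists and alternatives were chosen with earlier results of these data known. Alternatives were other filters, scalings, a pseudocount, limma-voom, other covariates and subsets of replicates. Protein sequences were not used here, and 2 genes that the rule names are not reported here, nor are the counts of the lists that hold them.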

Additional observations from a re-analysis of the deposited data

Results flagged for a closer look

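In 34 groups of 4 libraries (the 10 genes, Cox10, Pax7 and the 5 pairs, in each genotype), 6 held a library far from the other 3 by Dixon's test, where chance gives about 1 in 20 groups. Mcl1 stood at 8.89 log2 CPM in Cox10-/- replicate 4 and at 8.49 in the other 3. Bid stood at 2.48 in wild-type replicate 2, against 3.38 to 3.53, and at 0.82 in Cox10-/- replicate 4, against 2.52 to 2.54. Hrk stood at 0.98 in wild-type replicate 1, against 2.18 to 2.31. Cox10 stood at 2.05 in Cox10-/- replicate 4, against 3.49 to 3.69. The difference of Mcl1 minus Bak1 was 6.65 in Cox10-/- replicate 4, against 5.47 to 5.67. It contains the Mcl1 value flagged above. The 5 pairs are built from genes also examined singly, so the 34 groups and the 6 flags are not independent. Of these 6, 4 concern Cox10-/- replicate 4 and 1 wild-type replicate 2, the 2 shallowest libraries at 1693349 and 2148645 reads. The part of depth was not tested.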

How the results depend on the processing

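The 4 calls (Bcl2, Bcl2l1, Bcl2l11, Hrk) held in all 8 fits without 1 library. The number of members called was 4 to 5 there, with 0 to 1 lower. Log2 fold changes without 1 library ranged from 0.37 to 0.47 for Bcl2, 0.82 to 0.98 for Bcl2l1, 0.54 to 0.69 for Bcl2l11 and 1.93 to 2.37 for Hrk, and from -1.02 to -0.63 for Bak1 and 0.36 to 0.92 for Bmf. Over the whole table the count without 1 library was 1840 to 2907, with 873 to 1439 higher and 952 to 1725 lower. Against 2863 with all libraries, leaving out wild-type replicate 1 gave 1902 and leaving out Cox10-/- replicate 3 gave 1840.

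With 2 means per genotype 858 genes were called, 445 higher and 413 lower, and 2 members, both higher. Bcl2 (0.43, adjusted p = 0.147) and Bcl2l11 (0.60, adjusted p = 0.0628) lost their calls, and fewer samples were tested. Of the genes named from the other lists as called, Bcl2l13 (0.114), Bnip3l (0.199), Birc5 (0.139), Traf2 (0.151), Tnfrsf1a (0.279), Foxo4 (0.26) and Pmaip1 (0.1) missed the threshold there too (adjusted p beside each name). So did the marker Ly6a (0.0581). Within replicates 1 and 2 alone 1544 genes were higher and 871 lower, Bmf passed (1.39), and Mcl1 (-0.20), Bax (0.095), Trp53 (0.11) and Foxo1 (-0.075) turned sign. Within replicates 3 and 4 alone 1022 genes were higher and 1952 lower, 1 member was called lower, Bak1 (-1.48), Bcl2 lost its call (0.31), and Bad (-0.085) and Bmf (-0.055) turned sign. Mcl1 minus Bcl2l11 was -0.82 and -0.14 in the 2 sets, and Mcl1 minus Bak1 -0.025 and 1.92. Without the 2 shallowest libraries 1 member was called lower, Bid (-0.91). The cause of these shifts was not tested.

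Same-numbered libraries of the genotypes deviated together only weakly (r = 0.045, 0.137, 0.109 and 0.130), and not every library correlated best with its own number. Between the genotypes, libraries of the same set gave r of -0.024 to 0.165, and those of different sets -0.215 to 0.025. With a replicate block 4 members and 3201 genes were called, and Cycs passed as lower (-0.89, adjusted p = 0.0401), a call absent with 2 means per genotype (0.368). No filter, a minimum mean of 1, median centring, TMM, a pseudocount of 1, limma-voom, no trend or a term for the 2 sets each left 4 members called. Counting error is widest where reads are few, as for Hrk in wild-type replicate 1 (7 reads) and Bid in Cox10-/- replicate 4 (3 reads).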
